A study of Mus musculus with 25 samples.

Results

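The red cell genes examined here were 5 rows of the deposited expression table, the adult alpha-globin genes Hba-a1 and Hba-a2, the adult beta-globin genes Hbb-b1 and Hbb-b2, and the haem synthesis gene Alas2. They were taken by name from 23366 gene symbols, and all 5 were present and passed the filter on low values, beside 12251 symbols that passed in all. The table covers 25 bulk RNA-seq libraries of CD8+ T cells isolated from B16F10 tumours, a transplanted mouse melanoma, grown in C57BL/6 mice. There were 16 wild-type (WT) libraries, 3 from mice with a conditional knockout of Prdm1 (Prdm1 cKO), 3 with one of c-Maf (c-Maf cKO), and 3 in which both genes were conditionally deleted (Prdm1/c-Maf cDKO). Prdm1 encodes the transcriptional repressor Blimp-1, and c-Maf, a bZIP transcription factor, is encoded by Maf. The Cre line that deletes the genes is not given in the sources used here. Libraries came from lysed bulk T cells through a modified SMART-Seq 2 protocol, a way to amplify whole transcripts from little RNA. The study asked how losing either factor, or both, changes gene expression in the tumour's CD8+ T cells.

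Haemoglobin is the oxygen carrier of red cells, a tetramer of alpha and beta chains that each hold a haem group. Alas2 encodes the erythroid form of 5-aminolevulinate synthase, the enzyme of the first step of haem synthesis, while most other cells use the form encoded by Alas1. Mouse red cells lose their nucleus but young ones, the reticulocytes, still carry globin mRNA.

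The values are the authors' normalised signal, on a scale the sources used here do not state. They are not counts, so the sequencing depth is unknown and no counting error can be given. Total signal per library ran from 389650 to 475956. T cell markers were present in every genotype. The T cell receptor subunit gene Cd3e was above 0 in all 25 libraries, and Cd8a, the CD8 alpha chain, ran from 77.99 to 244.42 in WT, from 96.09 to 126.33 in Prdm1 cKO, from 181.01 to 208.12 in c-Maf cKO and from 70.05 to 168.14 in cDKO. Prdm1 signal was 6.45 to 24.85 in WT, 0.41 to 4.71 in Prdm1 cKO and 1.18 to 4.69 in cDKO. Maf signal was low throughout, at 0.03 to 0.95 in WT, 0 to 0.18 in cDKO, and 0, 0 and 0.93 in c-Maf cKO, so 1 library labelled c-Maf cKO, C1, stood near the top of the WT range and its label could not be checked by this gene. Libraries are named by the code in their column name. The labels do not say whether they came from separate animals, so the p-values measure the spread between libraries, which may be technical.

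The alpha-globin copies show why single globin rows have to be read with care. The coding sequences of Hba-a1 and Hba-a2 in the GENCODE M21 transcripts (GRCm38) are both 429 bases long and differ at 1 base, C381T (Hba-a1 base first, counted from 1 at the start codon), in codon 127, and encode the same 142 residues. The longest identical run is 380 bases. Bases 361 to 401 are printed 5′ to 3′, with the differing base in capitals.
Hba-a1: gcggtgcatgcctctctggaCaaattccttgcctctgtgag
Hba-a2: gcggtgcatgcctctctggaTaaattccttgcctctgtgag
A short read from most of either coding sequence matches both genes, so how the signal was shared between Hba-a1 and Hba-a2 depends on the authors' counting, and their sum is given beside each.

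Beta-globin has a naming problem of the same kind. Hbb-b1 and Hbb-b2 are names of the adult genes of one mouse beta-globin haplotype, while C57BL/6 mice carry another, whose adult genes are called Hbb-bs and Hbb-bt. The table holds a further row named Beta-s, which RefSeq lists as a synonym of Hbb-bs. Beta-s is not among the 5 genes, but its values are given beside them because it held most of the beta-globin signal.

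Promoter sequences are printed as background, and their part in the values of these libraries was not tested. RefSeq promoter windows (build GRCm38.p6, whereas the authors' build was mm9) matched 3 of the 5 genes, Hba-a1, Hba-a2 and Alas2, and that of Hbb-bs was added. The 200 bases upstream of the start site are given 5′ to 3′ on the gene's strand. Capitals mark the motifs, which were searched on both strands. The core of the sites that GATA factors bind was searched as AGATAA and, in its second form, as TGATAA. A box bound by Krüppel-like factors such as Klf1 was searched as CCNCNCCC. The box known by its letters CCAAT was searched as such, and a form of the TATA box was searched as ATATAA. The windows are chr11:32283472-32283671 (plus strand) for Hba-a1, chrX:150547217-150547416 (plus strand) for Alas2, and chr7:103827929-103828128 (minus strand) for Hbb-bs.
Hba-a1: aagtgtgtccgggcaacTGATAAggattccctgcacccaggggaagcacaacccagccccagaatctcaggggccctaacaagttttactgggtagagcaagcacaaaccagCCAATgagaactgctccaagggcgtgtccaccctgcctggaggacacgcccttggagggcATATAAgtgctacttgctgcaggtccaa
Alas2: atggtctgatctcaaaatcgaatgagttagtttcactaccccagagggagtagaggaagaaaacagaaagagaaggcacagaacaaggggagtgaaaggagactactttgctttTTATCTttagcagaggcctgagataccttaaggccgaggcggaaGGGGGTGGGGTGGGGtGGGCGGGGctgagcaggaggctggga
Hbb-bs: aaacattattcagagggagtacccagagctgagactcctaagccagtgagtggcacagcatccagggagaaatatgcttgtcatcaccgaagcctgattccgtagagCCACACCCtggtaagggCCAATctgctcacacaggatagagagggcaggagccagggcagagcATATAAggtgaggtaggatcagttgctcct
Hba-a1 held TGATAA at -183, CCAAT at -88 and ATATAA at -28 from its start site. Hbb-bs held CCACACCC at -93, CCAAT at -76 and ATATAA at -30, and AGATAA at -210, outside the bases shown. Alas2 held AGATAA on the reverse strand (TTATCT) at -86 and 4 matches to the Krüppel-like factor box on the reverse strand between -42 and -26, some overlapping. The Hba-a2 window was identical to that of Hba-a1 over the 297 bases they share, at an offset of 3 bases. Among 32851 RefSeq promoter windows reaching 250 bases upstream, 16.6% held either GATA form, 45.9% the Krüppel-like factor box, 33.8% CCAAT and 9.1% ATATAA. A match describes letters and does not show a binding site.

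Globin signal was present in every library and spanned a very wide range among WT libraries alone. Hba-a1, the main alpha-globin row, was above 0 in all 25 libraries. In WT it ran from 1.04 (library B6) through a median of 148.4 to 1321.66 (B4). In Prdm1 cKO it was 183.07 (A5), 962.16 (A6) and 1551.31 (A9). The WT range reached over nearly the whole of the Prdm1 cKO range, with A9 alone above the highest WT library. Hba-a1 was 121.22 (B10), 14.24 (B11) and 82.87 (C1) in c-Maf cKO, each below the WT median. It was 378.74 (C2), 1853.08 (A1) and 3399.89 (A2) in cDKO, where A1 and A2 exceeded every WT library and C2 lay inside the WT range, with 2 WT libraries above it. Within its library, Hba-a1 ranked 5th of all genes in A2, 27th in A1 and 151st in C2, against a median rank of 385 in WT. In order of mean, Hba-a1 was 1877 ± 1511 in cDKO (SD, n = 3), 899 ± 686 in Prdm1 cKO (n = 3), 230 ± 331 in WT (n = 16) and 72.8 ± 54.2 in c-Maf cKO (n = 3), and each group overlapped its neighbour in that order.

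Hba-a2, the second alpha-globin gene, was listed at 0 in 18 of 25 libraries. In WT it was above 0 in 3 of 16 libraries, at 12.38 (A10), 14.37 (A11) and 21.24 (B4). It was 8.40 (A5), 0 (A6) and 12.47 (A9) in Prdm1 cKO and 0 in all 3 c-Maf cKO libraries. In cDKO it was 0 (C2), 68.02 (A1) and 126.27 (A2), so that again A1 and A2 alone passed the WT range. A6, with the fifth highest Hba-a1 of all libraries, had Hba-a2 at 0, and Hba-a1 made up 92.1% to 100% of the alpha-globin signal in the 22 libraries with at least 10 of beta-globin signal.

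Hbb-b1 ran from 0 to 132.43 (B4) in WT, with a median of 11.73. It was 21.6 (A5), 105.38 (A6) and 181.34 (A9) in Prdm1 cKO, and 0, 0 and 1.12 (C1) in c-Maf cKO. In cDKO it was 79.8 (C2), 238.09 (A1) and 435.56 (A2). Among the 5 genes Hbb-b1 separated cDKO from WT best: 1 of 16 WT libraries, B4, exceeded the lowest cDKO library. Hbb-b2 ran from 0 to 87.48 (A11) in WT, with a median of 2.335. It was 7.29 (A5), 0 (A6) and 71.88 (A9) in Prdm1 cKO, 11.43 (B10), 1.36 (B11) and 0 (C1) in c-Maf cKO, and 1.65 (C2), 89.73 (A1) and 215.25 (A2) in cDKO. Here 9 WT libraries exceeded the lowest cDKO library, and the Hbb-b1 and Hbb-b2 rows did not keep a fixed proportion: A12 had 49.19 and 0.06, whereas A11 had 29.94 and 87.48.

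Hbb-b1 was listed at 0 in 7 of 25 libraries and Hbb-b2 in 8, whereas Beta-s was above 0 in all 25. It ran from 0.11 to 572.0 in WT (median 71.5) and was 112.04, 370.71 and 893.06 in Prdm1 cKO (A5, A6, A9). It was 43.2, 6.59 and 24.27 in c-Maf cKO (B10, B11, C1) and 234.54, 981.24 and 1844.79 in cDKO (C2, A1, A2). Beta-s made up 57.9% to 97.2% of the 3 beta-globin rows summed (median 78.5%, 22 libraries). On the deposited scale, alpha-globin signal divided by the 3 beta rows was 0.828 to 3.26 with a median of 1.51 in those libraries, and 1.2 to 1.47 in cDKO. These 22 libraries had at least 10 in the 3 beta rows, and without that limit the ratio reached 55.8 (B3). Against Hbb-b1 and Hbb-b2 alone, with no such limit, the ratio ran from 3.91 to 74. This left out B3 and B6, in which both rows were listed at 0. The 74 came from C1, where both rows summed to 1.12. The limits differ, so the spreads of these ratios cannot be set against each other. Levels of different genes on this scale depend on transcript length to an extent that is not known, so the ratios describe how steady the rows were relative to each other and not a molar balance.

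**Figure D1:**
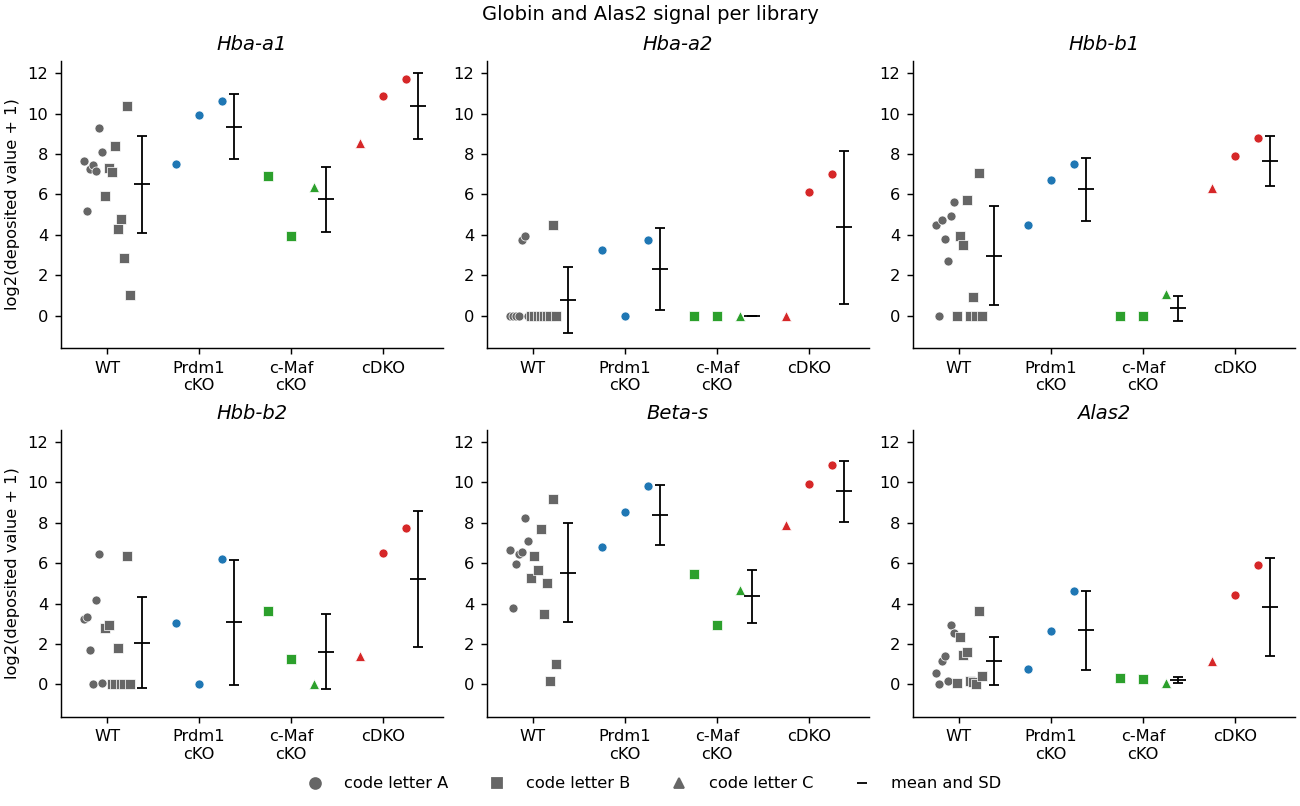
Deposited signal of the 5 genes and of Beta-s in each library as log2(value + 1) on the y axis, by genotype on the x axis, with shapes that give the code letter and bars that give mean and SD. The cDKO libraries A1 and A2 lie above every WT library for all 5 genes, while C2 (the triangle in cDKO) lies inside the WT range.

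Alas2 was low in most libraries. In WT it ran from 0 to 11.57 (B4), with a median of 0.855 and with 8 of 16 libraries at 1 or more. It was 0.67 (A5), 5.29 (A6) and 23.43 (A9) in Prdm1 cKO, and 0.23 (B10), 0.22 (B11) and 0.05 (C1) in c-Maf cKO. It was 1.25 (C2), 20.23 (A1) and 58.58 (A2) in cDKO. The same libraries stood at the top as for Hba-a1 (A2, A1, A9 and B4), though A9 was above A1, and 7 WT libraries exceeded the lowest cDKO library.

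The 5 globin rows together (the 4 globin genes and Beta-s) took 0.000491% to 0.472% of a library's signal in WT (median 0.0552%). The shares were 0.0777%, 0.309% and 0.598% in Prdm1 cKO (A5, A6, A9) and 0.00514% to 0.0407% in c-Maf cKO. They were 0.146%, 0.733% and 1.28% in cDKO (C2, A1, A2). Even in A2, the library with the most, globin was a small part of all signal. In bulk libraries a change in the number of cells of a type and a change in RNA per cell cannot be told apart.

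The knockout groups were then compared with WT. Values were compared as log2(value + 1) with limma in 1 fit of all 25 libraries, and a gene was called at a Benjamini-Hochberg adjusted p under 0.05 over all 12251 genes tested. In cDKO against WT, 3 of the 5 genes were called, all higher, where 5.09% of all genes tested were called higher, 6.85% lower and 11.9% in either direction. Hbb-b1 rose by 4.70 ± 1.36 (log2 fold change ± SE, adjusted p = 0.0259), Alas2 by 2.67 ± 0.83 (adjusted p = 0.0372) and Hba-a2 by 3.61 ± 1.18 (adjusted p = 0.0482). Hba-a1 had a log2 difference of 3.87 ± 1.37 (adjusted p = 0.0712) and Hbb-b2 of 3.17 ± 1.51 (adjusted p = 0.196), so neither passed, and neither did Beta-s, at 4.03 ± 1.36 (adjusted p = 0.059). The 5 genes had a median log2 difference of 3.61, against -0.03 over all genes tested. With copies summed, Hba-a1 plus Hba-a2 gave 3.89 ± 1.37 (adjusted p = 0.0702) and Hbb-b1 plus Hbb-b2 gave 4.22 ± 1.30 (adjusted p = 0.0373), and the 3 beta rows gave 4.14 ± 1.42 (adjusted p = 0.0621).

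The calls rested on A1 and A2. Without A1 none of the 5 genes was called by limma, where 6.04% of all genes tested were, against 11.9% with all libraries. The adjusted p was 0.109 for Hbb-b1 (log2 difference 4.58), 0.173 for Alas2 (2.37) and 0.276 for Hba-a2 (2.74). Without A2 none of the 5 was called either, where 4.2% of all genes were. The adjusted p was then 0.174 for Hbb-b1 (4.15), 0.389 for Alas2 (1.63) and 0.413 for Hba-a2 (2.29). With C2 as the lone cDKO library, assumed to vary like the other groups, Hbb-b1 stood 3.37 above WT (adjusted p = 0.547) and Alas2 0.01 above it (adjusted p = 0.997). Hba-a2, called by a narrow margin, kept its call in 15 of 40 alternative settings. With a pseudocount of 0.1 in place of 1, 0 of the 5 genes were called, and with no filter on low values 1 was. The shares of all genes called in these settings were 11.7% and 5.54%, in that order.

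The letter of the library code and the run of columns in the table are candidate batches, though the labels name no batch. Code letter A marks 7 WT, the 3 Prdm1 cKO and 2 cDKO libraries, letter B marks 9 WT and 2 c-Maf cKO libraries, and letter C marks C1 and C2 alone. WT libraries of letter A had a median Hba-a1 of 173.3 (range 35.78 to 619.5) and those of letter B of 60.3 (1.04 to 1321.66), so the letters overlapped widely. Within letter A, cDKO against WT gave 3.90 ± 0.99 for Alas2 (adjusted p = 0.0415), 5.45 for Hba-a2 (adjusted p = 0.0473), 4.57 for Hbb-b1 (adjusted p = 0.0867), 3.84 for Hba-a1 (adjusted p = 0.0543) and 4.42 for Hbb-b2 (adjusted p = 0.223). With the letter as covariate, Alas2 (3.19, adjusted p = 0.0302) and Hba-a2 (4.28, adjusted p = 0.0334) were called and Hbb-b1 (4.24, adjusted p = 0.0972) was not. The table lists WT columns next to the columns of each knockout, and the 5 WT libraries next to cDKO had a median Hba-a1 of 18.7 and included both the lowest (B6) and the highest (B4). With the column run as covariate, Hbb-b1 (6.07 ± 1.53, adjusted p = 0.0178) and Hba-a1 (5.72 ± 1.46, adjusted p = 0.0188) were called, and Alas2 (2.96 ± 1.01, adjusted p = 0.0773) and Hba-a2 (3.47, adjusted p = 0.148) were not.

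Prdm1 cKO libraries had higher mean values than WT for all 5 genes, but no difference passed the test. By limma 0 of 5 were called, where 3.45% of all genes tested were called, and 1 of 5, Hbb-b1, had an unadjusted p under 0.05, as had 20.6% of all genes. The log2 differences were 3.28 ± 1.36 for Hbb-b1 (adjusted p = 0.166), 2.83 ± 1.37 for Hba-a1 (adjusted p = 0.245), 1.51 ± 0.83 for Alas2 (adjusted p = 0.311), 1.57 for Hba-a2 (adjusted p = 0.485) and 1.03 for Hbb-b2 (adjusted p = 0.754). Library A5 was close to the WT median for Hba-a1 and A6 and A9 were far above it, so the 3 libraries differed widely among themselves. Leaving out 1 library moved Alas2 from 0.54 (without A9) to 2.47 (without A5), Hba-a2 from 0.86 (without A9) to 2.73 (without A6) and Hbb-b2 from -0.53 (without A9) to 2.57 (without A6).

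In c-Maf cKO no difference from WT passed either, and every value of the 5 genes but 1, Hbb-b2 in B10, was at or below the WT median. Over all 12251 genes 0 were called (0%) by limma, while 754 had an unadjusted p under 0.05, none of them among the 5 genes. Hbb-b1, at 0 in 2 of 3 libraries, gave -2.61 ± 1.36 (adjusted p = 0.813), with a 95% interval from -5.42 to 0.21. Alas2 gave -0.94 (adjusted p = 0.853), Hba-a1 -0.77 (adjusted p = 0.915) and Hbb-b2 -0.43 (adjusted p = 0.96), and Hba-a2 was listed at 0 in all 3 libraries. Without C1, 0 of the 5 were called and Hbb-b1 gave -2.97 (adjusted p = 0.87).

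**Figure D2:**
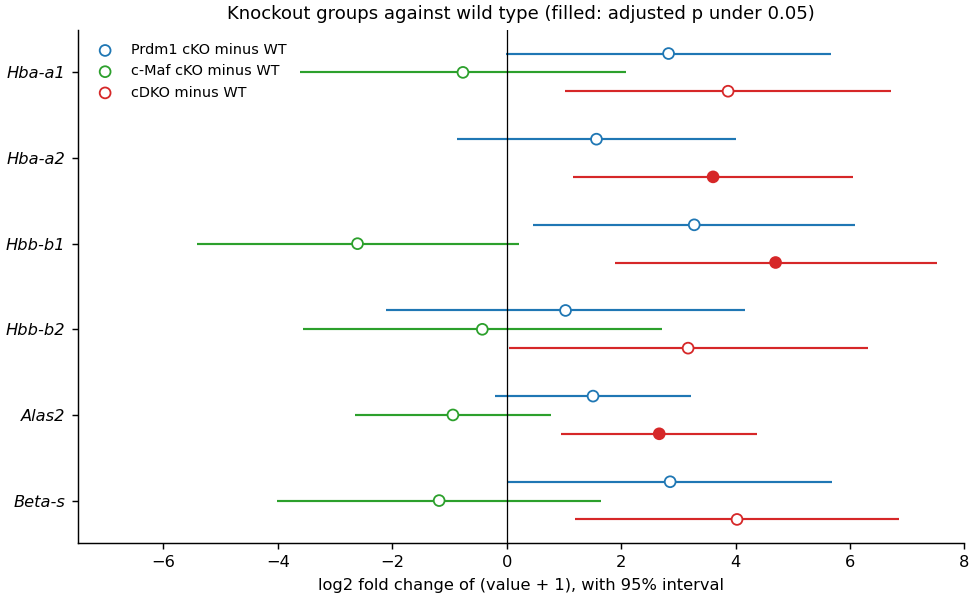
Difference of each knockout group from WT on the log2(value + 1) scale (x axis) with 95% intervals, for the 5 genes and Beta-s (y axis), with filled points for an adjusted p under 0.05. Hbb-b1, Alas2 and Hba-a2 are filled in cDKO and no point is filled in Prdm1 cKO or c-Maf cKO; Hba-a2 in c-Maf cKO, listed at 0 in all 3 libraries, is not drawn.

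Knockout groups were also compared with each other. Between cDKO and Prdm1 cKO 0 of 5 genes were called by limma (background 0.392%) and 0 had an unadjusted p under 0.05. The intervals were wide: the cDKO value minus the Prdm1 cKO value was 1.42 for Hbb-b1 (95% interval -2.23 to 5.07), 1.04 for Hba-a1 (-2.65 to 4.73) and 1.16 for Alas2 (-1.07 to 3.38), so these libraries do not show whether the groups differ. Between cDKO and c-Maf cKO 2 of 5 were called, both higher in cDKO, where 3.78% of genes were called higher and 9.39% in either direction. Hbb-b1 was higher by 7.31 ± 1.76 (adjusted p = 0.0121) and Alas2 by 3.61 ± 1.08 (adjusted p = 0.0363), and Hba-a1, at 4.63 (adjusted p = 0.106), did not pass. No c-Maf cKO library reached the lowest cDKO library for Hbb-b1, Hba-a1 or Alas2. The other genes overlapped: Hbb-b2 was 11.43 in B10 and 1.65 in C2, and Hba-a2 was 0 in C2 and in every c-Maf cKO library. The share of all genes that separate these groups was not computed. With the letter or the column run as covariate, or without A2, 0 of the 5 genes were called in cDKO against c-Maf cKO, while the Hbb-b1 difference was 6.28 with the letter (adjusted p = 0.0592), 6.76 without A2 (adjusted p = 0.0626) and larger with the column run (adjusted p = 0.0556). The share of all genes called fell as well, from 9.39% to 4.91% with the letter, 1.08% with the column run and 3.54% without A2. Without C1, Hbb-b1 was called (7.67, adjusted p = 0.0328) and Alas2 was not (3.53, adjusted p = 0.0924).

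Prdm1 cKO against c-Maf cKO gave 0 of 5 called by limma (background 1.53%), with Hbb-b1 and Alas2, 2 of 5, at an unadjusted p under 0.05, as were 20.7% of all genes. Hbb-b1 differed by 5.89 ± 1.76 (adjusted p = 0.0803), Hba-a1 by 3.59 (adjusted p = 0.255) and Alas2 by 2.45 (adjusted p = 0.201). Whether cDKO departs from the sum of the single knockouts was tested directly, as the cDKO difference from WT less the 2 differences of Prdm1 cKO and c-Maf cKO from WT. For this term 0 of 5 genes were called by limma and 0 had an unadjusted p under 0.05, where 0.00816% of genes tested were called. It was 4.03 for Hbb-b1 (adjusted p = 0.51) and 2.10 for Alas2 (adjusted p = 0.585). The comparisons share libraries, so their values are not independent of each other.

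The globin rows and Alas2 rose and fell together from library to library. Across the 25 libraries, log2 alpha-globin signal (Hba-a1 plus Hba-a2) and log2 signal of the 3 beta rows had Pearson r = 0.98 and Spearman rho = 0.99 (permutation p = 1e-05 for both, the smallest that 100000 resamples can give, adjusted to 2e-05 over 12 relations). Without B6 and B3, the libraries farthest from the median, r was 0.98. Within WT alone r was 0.97 and rho 0.98 over 16 libraries, within letter A r was 1 after rounding and rho 0.99 over 12 libraries, and within letter B r was 0.96 and rho 0.99 over 11 libraries. Alpha-globin and Alas2 were related with r = 0.82 and rho = 0.87 over all 25 libraries (adjusted permutation p = 2e-05 for both), and r was 0.89 without B6 and B3. Within WT r was 0.75 and rho 0.81 (adjusted permutation p = 0.00099 and 0.00039), within letter A r was 0.94 and rho 0.90 over 12 libraries, and within letter B r was 0.78 and rho 0.71 (adjusted permutation p = 0.0043 and 0.018). The covariation was therefore found among WT libraries as well as across genotypes and within both letters. The libraries share the authors' normalisation, and their depth is unknown.

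**Figure D3:**
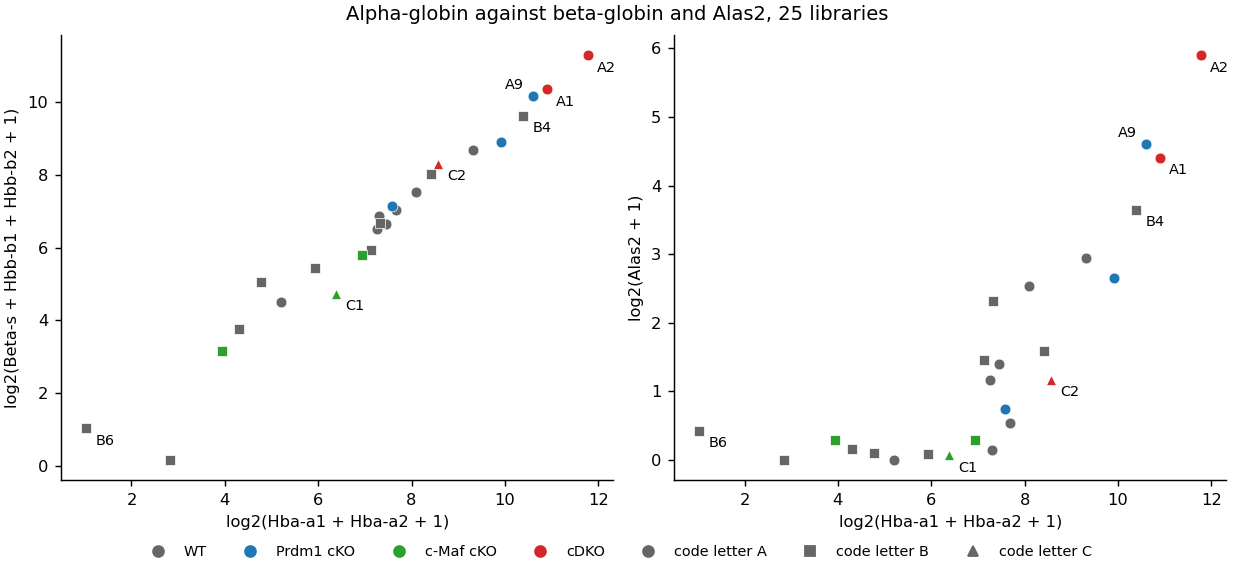
Alpha-globin signal (Hba-a1 plus Hba-a2, x axis) against the 3 beta-globin rows summed (left, y axis) and against Alas2 (right, y axis) in each of 25 libraries, all as log2(sum + 1), coloured by genotype and shaped by code letter. Points follow one rising line on the left (r = 0.98), and on the right Alas2 stays near 0 until alpha-globin is high.

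Genes whose pattern was nearest to the mean of the 5 genes were taken by Spearman rho over the 25 libraries. Beta-s came first, with rho = 0.96 (0.92 over the 16 WT libraries). After it the likeness fell off to Wdr45b (0.74, and 0.71 in WT), the interleukin-20 receptor subunit gene Il20rb (0.74 and 0.61), the respiratory complex I subunit gene Ndufa6 (0.73 and 0.42), Hpcal1 (0.72 and 0.77) and Slc4a1 (0.71 and 0.68). Slc4a1 encodes band 3, the anion exchanger of the red cell membrane. The remaining 4 of the 10 were Usp53 (0.69 and 0.39), Fbxl5 (0.69 and 0.41), which encodes an iron-sensing ubiquitin ligase subunit, Zfand2a (0.68 and 0.44) and 9030617O03Rik (0.67 and 0.45). Of the 10 nearest genes, 3 were also among the 10 nearest in WT alone: Beta-s, Wdr45b and Hpcal1. The 5 genes themselves had rho between 0.66 (Hbb-b2) and 0.95 (Hba-a1) to a mean that contains them.

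Other globins were close to absent. Of the embryonic and other globin rows 9 were in the table, 0 passed the filter, and their summed signal was at most 2.31 in any library. The embryonic genes Hba-x, Hbb-bh1 and Hbb-bh2 were listed at 0 in all 25 libraries. The globin signal was thus that of adult genes.

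Alas2 was the 1 gene of the haem synthesis list that was higher in cDKO. Of the 8 other enzymes of haem synthesis, 0 were higher and 2 lower in cDKO than in WT, with a median log2 difference of -0.05 against -0.03 over all genes. Over all genes tested 5.09% were called higher and 6.85% lower. Alad, whose enzyme joins 2 aminolevulinate molecules, gave -0.82 ± 0.24 (adjusted p = 0.0233). It was 3.56 to 10.13 in WT and 3.38 (C2), 2.89 (A1) and 2.53 (A2) in cDKO, below every WT library and lowest in the library with the most Alas2. In Prdm1 cKO Alad was 3.04 (A5), 3.01 (A6) and 6.39 (A9). A5 and A6 were thus also below every WT library, although Alas2 was only 0.67 in A5. Alas1, the form of the first enzyme found in most cells, was 4.15 to 9.82 in WT and 5.67, 8.0 and 7.72 in cDKO (C2, A1, A2), a difference of -0.02 ± 0.23 (adjusted p = 0.971). Fech, which inserts iron into the ring, was 4.46 to 12.78 in WT and 4.96, 9.35 and 15.95 in cDKO (0.20 ± 0.31, adjusted p = 0.758), with A2 above the WT range, as was A9 of Prdm1 cKO at 16.95. The 8 enzymes had a median sum of 82.3 in WT and of 71.8 in cDKO.

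Genes that carry and break down haem, or handle iron, showed single calls. In these lists and the synthesis list, which includes Alas2, 6 of 32 genes tested were called in cDKO against WT by limma. Of all genes tested 11.9% were called. Among 8 transport genes tested 1 was lower in cDKO, Tmem14c, a carrier of haem precursors in the mitochondrion (-0.41 ± 0.13, adjusted p = 0.0351). Among 6 haem breakdown and globin scavenging genes tested 1 was lower, Blvra, which encodes biliverdin reductase (-0.77 ± 0.20, adjusted p = 0.0102). The haem oxygenase gene Hmox1 was 7.47 to 175.9 in WT, 70.69 to 171.3 in Prdm1 cKO and 19.3 to 33.99 in cDKO. Among 9 genes of iron uptake and storage 1 was higher, the iron transporter gene Slc11a2 (0.74 ± 0.22, adjusted p = 0.0274). Neither single knockout group had a called gene here: of the 32 genes tested in these and the synthesis list, 0 were called by limma against WT in either group, with 7 (Prdm1 cKO) and 0 (c-Maf cKO) at an unadjusted p under 0.05, a level that 20.6% and 6.15% of all genes reached.

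Genes of the red cell membrane were mostly too low to test. Of 18 membrane and skeleton genes 7 passed the filter. Slc4a1 aside, Epb4.1 alone was called higher in cDKO, where 5.09% of all genes tested were called higher. Slc4a1 reached 1 in 3 cDKO libraries and 1 other, so it passed the filter through cDKO, had to differ there, and its test is not given. It was 0 in 11 of 16 WT libraries and at most 0.79 in the others, 0, 0 and 1.07 in Prdm1 cKO (1.07 in A9), 0 in c-Maf cKO, and 1.66 (C2), 5.46 (A1) and 13.55 (A2) in cDKO. Because the gene passed the filter through cDKO, the higher values there are not a separate result. Epb4.1, the gene of skeleton protein 4.1, which other cells also use, was 11.78 to 26.02 in WT and 29.51, 43.98 and 44.66 in cDKO, with no overlap (1.18 ± 0.19, adjusted p = 0.000287). In Prdm1 cKO it was 16.53 (A5), 29.35 (A6) and 18.32 (A9), and so was not highest in the library with the most globin.

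Nuclear regulators of red cell development were low in all genotypes or not called. Of 8 erythroid transcription factors 3 passed the filter and 0 were called in cDKO against WT by limma, with 1 at an unadjusted p under 0.05, as were 24.8% of all genes. Gata1, the erythroid GATA factor, was 1.51 in C2, 0.41 in A1 and 0 in A2, and at most 0.84 in WT. It was thus at 0 in the library with the most globin. Klf1, the erythroid Krüppel-like factor, was at most 1.01 in any library. Of 12 late red cell and reticulocyte genes tested 0 were higher and 1 was lower, Prdx2, the gene of an antioxidant enzyme abundant in red cells (-0.43 ± 0.14, adjusted p = 0.0397). The shares over all genes tested were 5.09% higher and 6.85% lower.

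Markers of other cells were compared because a T cell isolate from a tumour can hold them. In cDKO platelet markers summed to 1.6 to 1.81 (10 genes, 3 tested, 0 called by limma and 1 at an unadjusted p under 0.05, median log2 difference -1.09), against 0.89 to 110 in WT. The platelet chemokine gene Pf4 was 0 (C2), 1.31 (A1) and 1.21 (A2) in cDKO, and 46.32 to 148.62 in Prdm1 cKO. The 14 macrophage and monocyte markers summed to 159 to 248 in cDKO, 69.7 to 2419 in WT and 1421 to 4295 in Prdm1 cKO. In cDKO against WT 1 was lower (Ccr2, a monocyte chemokine receptor gene, -1.89, adjusted p = 0.00527) and the median was -1.01, whereas in Prdm1 cKO all 14 differences were positive, with a median of 2.52, 13 had an unadjusted p under 0.05 and 1 was called higher (Emr1, the F4/80 gene, 2.72, adjusted p = 0.0365). With the macrophage score as covariate 0 of the 5 red cell genes were called in cDKO against WT by limma. Of all genes tested 11.8% were called with this covariate and 11.9% without it. Hbb-b1 gave 4.47 (adjusted p = 0.0511), Hba-a2 3.23 (adjusted p = 0.101) and Alas2 2.21 (adjusted p = 0.0925). Without the covariate these genes gave 4.70, 3.61 and 2.67. Globin signal was high in A1 and A2, where summed macrophage and platelet markers were below their WT medians (463 and 12.8). Both sums were also below these medians in B4 (176.6 and 0.89), A11 (69.69 and 2.74) and C2 (248.3 and 1.6). The 5 globin rows summed to 2127.26 in B4, 1046.56 in A11 and 694.73 in C2. In A6 and A9, where globin signal was high as well, both sums were above the medians. The platelet sum was nearly all Pf4 in A6 (148.62 of 153.1) and in A9 (147.0 of 151.7), so it rested on a single gene there.

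Of B cell markers 1 of 3 tested was higher in cDKO (Cd79b, 1.10, adjusted p = 0.0455), where 5.09% of all genes tested were called higher. The 6 markers summed to 8.54 to 10.7 in cDKO and 0.37 to 10.6 in WT. The 1 endothelium and fibroblast marker tested of 8, Pecam1, an endothelial adhesion gene that leukocytes also express, was higher too (1.08, adjusted p = 0.012). These 8 markers summed to 11.2 to 18.4 in cDKO and 3.35 to 13.9 in WT. Of 3 neutrophil markers tested and 8 melanoma markers tested 0 were called in cDKO against WT by limma and 0 had an unadjusted p under 0.05, and the melanoma markers summed to 118 to 1623 in cDKO and 7.63 to 3655 in WT. The 8 CD8 T cell markers summed to 2629 (C2), 1382 (A1) and 1657 (A2) in cDKO, 1484 to 1853 in Prdm1 cKO and 1192 to 3360 in WT (median 2546). They were below the WT median in A1 and A2, where globin was highest. Among WT libraries the highest sum, 3360, was in B4, which had the most globin of any WT library. B1 (3009) and B6 (2928) also had high sums, but their 5 globin rows summed to 31.22 and 2.07. The lowest, 1192, was in B3, where the 5 globin rows summed to 6.25. Cd3g, a subunit gene of the T cell receptor complex, was lower in cDKO (-0.90 ± 0.29, adjusted p = 0.0399), at 332.59 (C2), 134.03 (A1) and 181.21 (A2) against 145.97 to 559.93 in WT. Zap70, the gene of a receptor-proximal kinase, was lower in Prdm1 cKO (-0.93 ± 0.24, adjusted p = 0.0325). The part of any of these cells in the globin result was not tested.

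**Figure D4:**
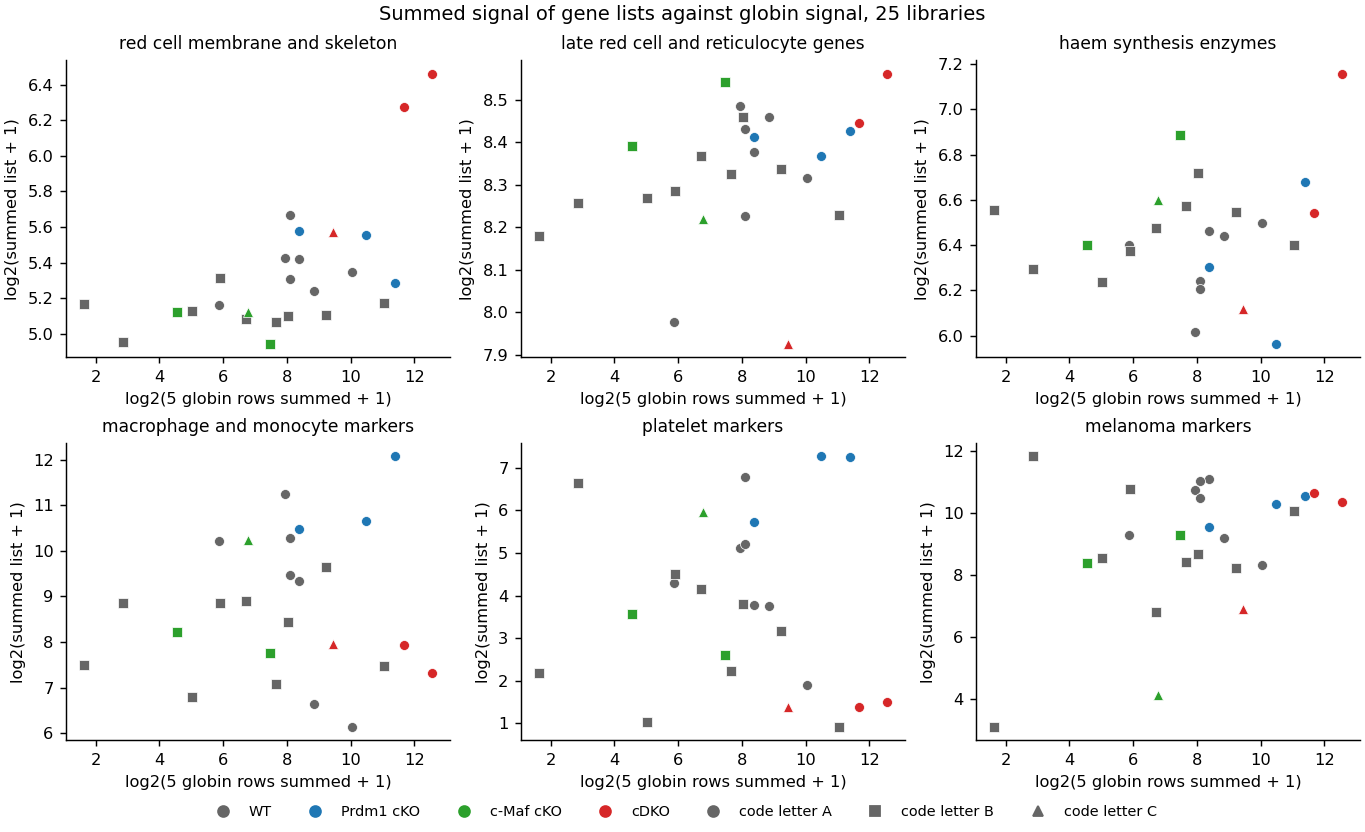
Summed signal of 6 gene lists (y axes, log2 of the sum + 1) against the 5 globin rows summed (x axes, log2 of the sum + 1) in 25 libraries, coloured by genotype and shaped by code letter. The membrane list is highest in A1 and A2 (up to 87.2), platelet markers are at 1.6 to 1.81 in cDKO, and the haem synthesis list, which includes Alas2, is highest in A2.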

How the data were processed

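CD8+ T cells from tumours were profiled by bulk RNA-seq. The authors deposited a normalised signal per gene symbol and library; per the submitters' processing notes TopHat, RSEM and DESeq were used with build mm9, without versions. Low values fall with transcript length (10th percentile above 0 from 0.42 in the shortest quartile to 0.06 in the longest, over 21732 symbols), so the signal may be scaled by length, and the minimum for normalised counts was not used. The genotype written in each column's name gave its group, and the names carry no replicate number.

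Genes that reached 1 in 3 or more libraries were tested as log2(value + 1) with limma 3.58.1 (trend and robust options) in R 4.3.3, with all 25 libraries, no covariate, and Benjamini-Hochberg adjustment over 12251 genes. Fold changes on this scale understate changes of low values. The script was tested on simulated data. Relations used permutation tests (scipy 1.17.1), two-sided. No pair of columns was identical (0 pairs), and 0 columns were left out.

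The 5 genes and the gene lists were chosen with earlier results of these data known. Named are the 5 genes, list members called against WT, set defining genes, the 10 nearest genes and the targeted genes; a few genes this rule names are not reported here. Alternatives changed the pseudocount, filter, fit, scaling, batch terms and libraries.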

Additional observations from a re-analysis of the deposited data

How the results depend on the processing

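The number of the 5 genes called in cDKO against WT was 3 and became 0 with a pseudocount of 0.1, 1 with no filter on low values, 5 with array weights, 0 with the macrophage score as covariate and 0 without A1 and A2. Of all genes 11.7% were called with that pseudocount, 5.54% with no filter and 11.8% with the macrophage score, against 11.9% in the main fit. Leaving out 1 library at a time gave 0 to 4, with 0 without A1 and 0 without A2. In cDKO against c-Maf cKO the main count was 2, with 9.39% of all genes called (this share follows each count in brackets). It became 1 with no filter (3.97%), 1 with only the groups compared (7.13%) and 4 with array weights (15.1%). It was 0 with the column run (1.08%) or the letter (4.91%), 1 with the macrophage score (9.65%) and 0 without A1 and A2 (0.609%). Leaving out 1 library gave 0 to 3. In Prdm1 cKO against c-Maf cKO, 0 became 1 with only the groups compared and 1 when rescaled to the CD3 genes. The share of all genes called moved there from 1.53% to 2.4% and 2.95%. The cause was not tested.

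Some differences turned sign. Hbb-b2 in c-Maf cKO against WT became 0.20 with the column run, 1.30 with the letter and 0.19 without B4 and A11, and ran from -1.43 to 0.39 (without C1) with 1 library left out. Hba-a1 there became 0.02 with the letter, and ran from -1.36 to 0.15 (without B11) with 1 library left out. In cDKO against Prdm1 cKO, Alas2 became -0.17 with the macrophage score and -1.50 without A1 and A2, and Hba-a1 -0.78 without A1 and A2. Hbb-b2 in Prdm1 cKO against WT ran from -0.53 (without A9) to 2.57 with 1 library left out. Without A1 and A2, Hbb-b2 in cDKO against WT became -0.65 and Hba-a2, listed at 0 in C2, -0.76.

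Over 40 alternatives the adjusted p in cDKO against WT ran from 0.0037 to 0.547 for Hbb-b1 and from 0.00224 to 0.997 for Alas2, each called in 33, and from 0.00152 to 0.856 for Hba-a2, called in 15. Hba-a1 was called in 6 of 40 and Hbb-b2 in 1. The share of all genes called in cDKO against WT also moved, from 11.9% to 21.5% with array weights, 6.04% without A1, 4.2% without A2 and 0.568% without both. The settings without A1 and A2, without B4 and A11, letter A only, and copies summed were chosen after seeing the data. No paired analysis was possible because the column names carry no replicate number. Restricting the fit to the groups compared gave no value for the departure from additivity, nor letter A alone for comparisons with c-Maf cKO. Depth is unknown, so a value listed at 0 carries no detection limit.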
